A study of Mus musculus with 12 samples.

Results

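A set of 10 genes of vascular endothelial growth factor (VEGF) signalling and of the endothelium was examined in cortex and cerebellum of SCA1 KI mice and their wild-type (WT) littermates. They are named by symbol, with no threshold on a measured value, as 3 ligands (Vegfa, Vegfb and Vegfc), 3 receptors (Flt1, Kdr and Nrp1) and 4 genes of endothelial cells (Cldn5, Pecam1, Cdh5 and Tek), and the set was chosen with earlier results of these data known. All 10 were among the 15759 entries of the table, and all 10 were among the 15369 genes that were tested (mean over all libraries of 10 normalized counts or more). Poly-adenylated RNA of whole cortex or whole cerebellum was sequenced at 12 weeks of age in 3 libraries for each of 4 groups: WT cortex (libraries B, C and D), SCA1 KI cortex (A, E and F), WT cerebellum (2, 4 and 6) and SCA1 KI cerebellum (1, 3 and 5). SCA1 KI mice carry an Atxn1 allele with 154 glutamine codons beside one with 2 (Atxn1 154Q/2Q), under the gene's own regulators in every cell that uses it, and mice of both genotypes were on the C57BL/6J background. The labels give the mice of the libraries as males, while the methods describe both sexes. Lower Vegfa in SCA1 has been described before, so the comparison asks how the ligand, its receptors and the vessel genes stood in each region.

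VEGF-A, made by neurons and glia in the brain, binds the tyrosine kinase receptors FLT1 and KDR on endothelial cells. KDR carries most of the signal for growth and survival, FLT1 binds the ligand tightly and limits what reaches KDR, and neuropilin 1 (Nrp1) is a co-receptor that neurons also use for semaphorins. Claudin 5 (Cldn5) seals the tight junctions of the blood-brain barrier, VE-cadherin (Cdh5) and PECAM-1 (Pecam1) join endothelial cells to each other, and Tek encodes TIE2, the receptor of the angiopoietins. In GENCODE vM21 (GRCm38) Vegfa lies on chromosome 17 from 46016993 to 46032369 and Vegfb on chromosome 19 from 6982473 to 6987651. Flt1 (147561604 to 147726011) and Kdr (75932827 to 75978458) are both on chromosome 5, and Vegfc, Nrp1 and Cdh5 are on chromosome 8. Tek is on chromosome 4, Pecam1 on chromosome 11, and Cldn5, a gene of 1 exon, on chromosome 16 from 18776847 to 18778262.

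Promoters of 8 of the 10 genes were found in RefSeq (GRCm38.p6), and the 250 bases before the annotated start are shown for the ligands Vegfa and Vegfc, the receptor Flt1 and the junction gene Cldn5. They lie at chr17:46032378-46032627 (minus strand), chr8:54077282-54077531 (plus strand), chr5:147726012-147726261 (minus strand) and chr16:18776597-18776846 (plus strand). Each is written 5′ to 3′ on the strand of its gene, with capitals marking a GC box, a hypoxia response core or a TATA box.
Vegfa: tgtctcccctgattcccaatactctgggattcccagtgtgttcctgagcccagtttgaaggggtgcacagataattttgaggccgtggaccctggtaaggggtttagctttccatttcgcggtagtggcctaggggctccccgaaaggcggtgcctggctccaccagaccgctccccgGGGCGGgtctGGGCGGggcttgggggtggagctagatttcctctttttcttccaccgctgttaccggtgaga
Vegfc: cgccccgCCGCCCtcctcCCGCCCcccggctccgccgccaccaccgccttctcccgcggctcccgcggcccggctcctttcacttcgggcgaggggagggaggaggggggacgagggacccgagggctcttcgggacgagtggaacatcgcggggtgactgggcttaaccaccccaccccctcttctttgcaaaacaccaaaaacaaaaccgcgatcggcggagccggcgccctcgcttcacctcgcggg
Flt1: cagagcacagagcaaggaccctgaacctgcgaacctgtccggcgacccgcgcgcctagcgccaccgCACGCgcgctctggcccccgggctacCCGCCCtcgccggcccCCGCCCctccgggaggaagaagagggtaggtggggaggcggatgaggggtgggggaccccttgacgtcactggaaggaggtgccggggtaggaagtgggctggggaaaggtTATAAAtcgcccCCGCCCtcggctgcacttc
Cldn5: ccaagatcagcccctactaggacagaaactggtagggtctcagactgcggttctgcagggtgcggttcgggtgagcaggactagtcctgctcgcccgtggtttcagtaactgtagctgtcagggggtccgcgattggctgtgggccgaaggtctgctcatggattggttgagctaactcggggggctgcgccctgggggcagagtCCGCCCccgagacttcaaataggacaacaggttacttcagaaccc
The GC box (GGGCGG, either strand) was present in 7 of the 8 windows, Tek being the exception, and in 32.74% of all 32851 RefSeq promoter windows of this length. The hypoxia response core (ACGTG or GCGTG, either strand) was found in 4 of 8, namely Vegfb, Flt1, Kdr and Nrp1, against 38.6% of all windows. A TATA box (TATAAA, gene strand) was found in Flt1 alone, 31 bases before the start, and in 7.592% of all windows. GGAAG, the core bound by ETS factors, was in 4 of 8 windows against 64.07% of all. The octamers TGAATGAA and TGAATGGA, which are bound by capicua, the DNA-binding partner of ataxin-1, were in 0 of 8 windows and in 2.073% of all windows. These are matches of letters, and a window without a match says only that the letters are not in those 250 bases.

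The libraries held between 29520855 and 51311309 reads on genes, and the least abundant of the 10 genes, Vegfc in the SCA1 KI cortex, still had 129 to 168 normalized counts. None of 24 further endothelial marker genes was at 0 in any group, and their summed counts ran from 19391 to 28317. These 24 genes had all passed the minimum mean, so this does not show how well endothelial cells were represented. Cortex libraries D (WT) and A (SCA1 KI) stood apart for the genes described here. Each held the lowest level within its group of all 7 receptors and endothelial genes, whereas over all tested genes D was the lowest WT cortex library in 38.8% and A the lowest SCA1 KI cortex library in 42.8%. The same libraries were lowest in only 7 and 2 of the 24 further endothelial markers. Both were also higher in short transcripts and lower in long ones, with median log2 deviations from the group mean of 0.10 in D and 0.12 in A for genes in the lowest quintile of exon length and of −0.073 and −0.11 for those in the highest. After correction of every library for transcript length and GC content, D and A still held the lowest levels of all 7. In this bulk tissue, fewer cells of a type and less RNA per cell cannot be told apart.

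Per kilobase of exon, Vegfb was the most abundant of the 10 genes in all 4 groups, with means of 1338 to 1586 normalized counts per kb. Cldn5 followed with 878 to 987 and Vegfa with 638 to 827 per kb, and the libraries of Cldn5 and Vegfa overlapped in the SCA1 KI cortex only. Flt1 and Cdh5 came next at 170 to 209 per kb, and these neighbours overlapped in all 4 groups. Tek and Pecam1 lay between 137 and 163 per kb. Kdr, the main signalling receptor, lay between 68.1 and 83.6 per kb, less than its fellow receptor Flt1 in every group. Vegfc was the lowest of all in the cortex, at 70.2 ± 3.03 per kb in WT and 59.9 ± 8.17 per kb in SCA1 KI (SD, n = 3). The length joins all annotated exons of a gene and is not that of the transcript in use, so the order depends on it. By normalized count Vegfa was above Vegfb in every group, with means of 2744 and 2546 in WT cortex.

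In the cortex, none of the 10 genes was a differentially expressed gene (DEG) between SCA1 KI and WT mice. A DEG had a Benjamini-Hochberg adjusted p under 0.05 and an absolute log2 fold change (LFC) over 0.25 in a limma fit of log2(normalized count + 1), and 15.6% of all tested genes were DEGs. The LFC was below 0 for all 10 genes, with a median of −0.20. Of all 15369 tested genes 7755 were below 0, with a median of −0.0028. Not a single member had its 3 SCA1 KI libraries wholly above or below the 3 WT libraries, a pattern that 30.9% of all tested genes showed. At an unadjusted p under 0.05, 1 of the 10 (Flt1) and 4689 of all genes differed, and edgeR and DESeq2 on the recovered reads also called 0 of the 10.

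Of the ligands, Vegfa had 2776, 3141 and 2315 normalized counts in WT cortex libraries B, C and D and 2253, 3107 and 2838 in SCA1 KI cortex libraries A, E and F. Both groups covered the same range, with the lowest values in D and A. The LFC of Vegfa was −0.0076 (95% interval −0.26 to 0.25, adjusted p = 0.974), which is 0.833 to 1.19 times the WT mean by this interval. The interval uses a spread shared by both regions. The SD of Vegfa was 414 in WT and 437 in SCA1 KI cortex, but 106 in WT and 163 in SCA1 KI cerebellum. It is thus not a bound from the cortex libraries alone. Vegfb, which binds FLT1 and not KDR, had 2417, 2347 and 2874 normalized counts in WT and 2733, 2243 and 2408 in SCA1 KI cortex, highest in the 2 libraries in which Vegfa was lowest. Its LFC was −0.048 (95% interval −0.24 to 0.14, adjusted p = 0.753). Vegfc, a ligand of FLT4 and KDR best known in lymphatic vessels, had 164, 173 and 179 normalized counts in WT and 129, 143 and 168 in SCA1 KI cortex. Library F alone reached into the WT range. The LFC of Vegfc was −0.23 (95% interval −0.51 to 0.047, adjusted p = 0.248). With single libraries left out it ran from −0.34 to −0.15 (without A), with adjusted p of 0.116 to 0.537. After correction of each library for transcript length and GC content, its levels were 174 to 176 in WT and 117 to 167 in SCA1 KI cortex, without overlap. How many of all genes lacked overlap after that correction was not counted. Over the settings that kept all libraries, its adjusted p was 0.141 or more.

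**Figure D1:**
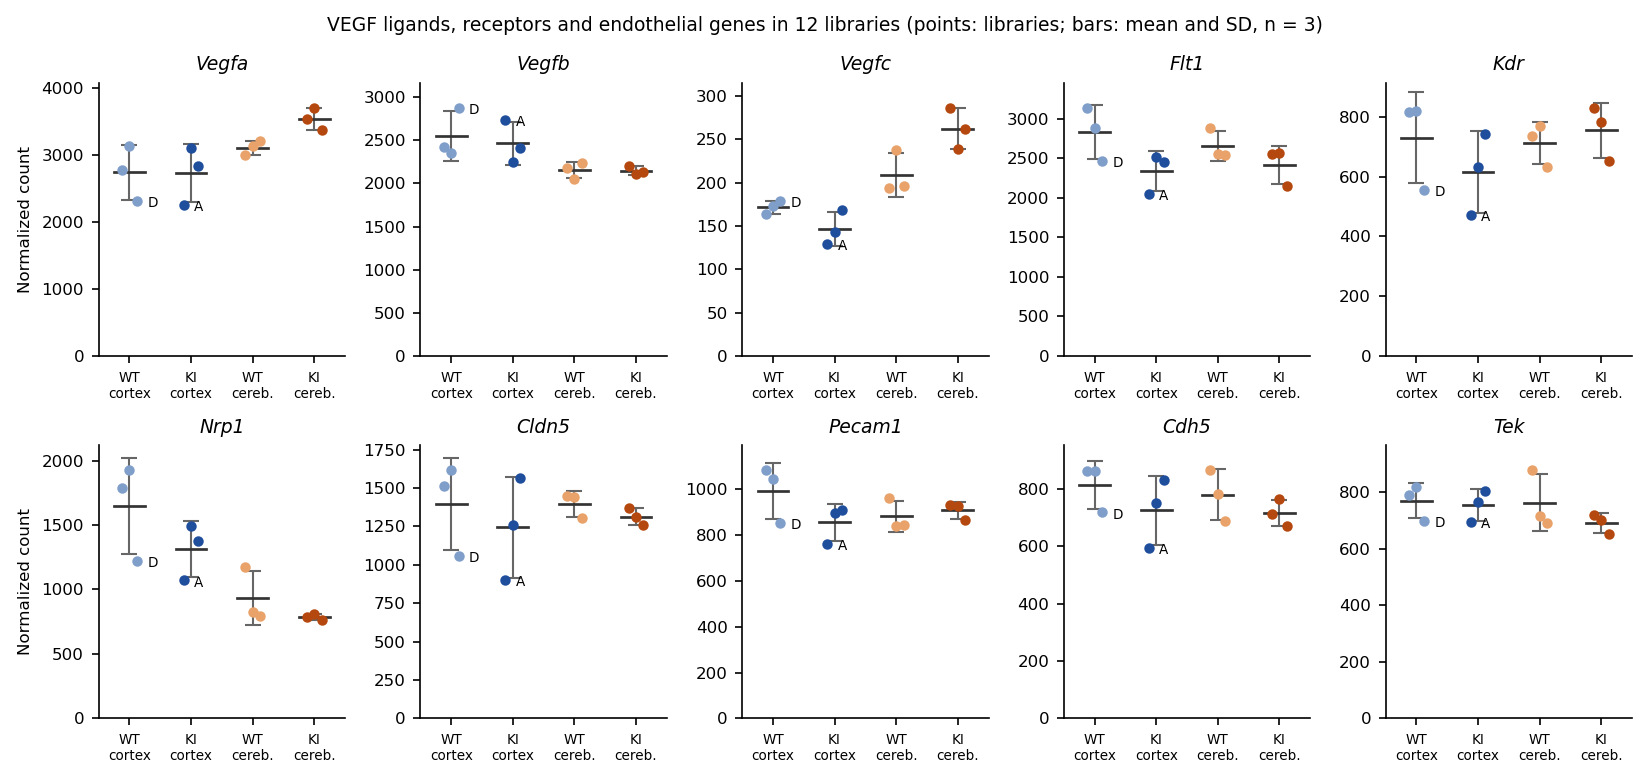
Normalized counts of the 10 genes (vertical axes, starting at 0) in the 12 libraries, grouped by genotype and region; points are libraries, bars are the mean and SD of 3 libraries, and cortex libraries A and D are lettered. Vegfa lay at 3382 to 3708 in the SCA1 KI cerebellum, above all WT cerebellum libraries, while the cortex groups overlapped for every gene.

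None of the receptors passed the threshold in the cortex. Flt1 had 3135, 2881 and 2461 normalized counts in WT and 2045, 2509 and 2448 in SCA1 KI cortex. WT library D fell within the SCA1 KI range, and the other WT libraries lay above it. The LFC of Flt1 was −0.27 (95% interval −0.51 to −0.042, unadjusted p = 0.0243, adjusted p = 0.101 from limma). After correction of each library for transcript length and GC content it was −0.18, and it still missed the threshold. Corrected Flt1 levels were 2656 to 3029 in WT and 2413 to 2596 in SCA1 KI cortex. They no longer overlapped, but how many of all genes showed this after the correction was not counted. Under that correction 3 of the 10 genes (Flt1, Vegfc and Pecam1) had an unadjusted p under 0.05, beside 4783 of the 14609 genes in that fit, and 0 of the 10 were DEGs. Kdr had 815, 820 and 556 normalized counts in WT and 471, 631 and 743 in SCA1 KI cortex, with an LFC of −0.25 (95% interval −0.64 to 0.14, adjusted p = 0.379). Nrp1 had 1788, 1927 and 1225 normalized counts in WT and 1071, 1492 and 1373 in SCA1 KI cortex, with an LFC of −0.31 (95% interval −0.70 to 0.076, adjusted p = 0.266). For Kdr and Nrp1, libraries B and C were above every SCA1 KI library, and D lay among them. With single libraries left out, the LFC of Kdr ran from −0.44 (without D) to −0.071 (without A) and that of Nrp1 from −0.51 (without D, adjusted p = 0.0534) to −0.18 (without A, adjusted p = 0.599).

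Among the endothelial genes, Pecam1 had 1084, 1043 and 853 normalized counts in WT and 763, 897 and 908 in SCA1 KI cortex, again with D inside the SCA1 KI range. Its LFC was −0.21 (95% interval −0.43 to 0.0096, adjusted p = 0.184). Cldn5 had 1512, 1617 and 1059 normalized counts in WT and 904, 1260 and 1565 in SCA1 KI cortex, so that the groups overlapped widely (LFC −0.18, 95% interval −0.57 to 0.21, adjusted p = 0.543). Cdh5 had an LFC of −0.18 (95% interval −0.45 to 0.098, adjusted p = 0.382; −0.28 without F and −0.040 without A) and Tek one of −0.028 (95% interval −0.25 to 0.19, adjusted p = 0.884). Tek, with 699 to 817 normalized counts in WT and 695 to 804 in SCA1 KI cortex, was the vessel gene whose groups lay closest.

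Whether Flt1 and Pecam1 passed in the cortex rested on library D. Without it, Flt1 (LFC −0.37, adjusted p = 0.0366) and Pecam1 (LFC −0.32, adjusted p = 0.0421) were DEGs, and over the 12 fits that each left out 1 library the adjusted p ran from 0.0366 to 0.302 for Flt1 and from 0.0421 to 0.457 for Pecam1. With A and D both left out, which was tried once their values had been seen, 0 of 10 were DEGs, and the LFC was −0.28 for Flt1 (adjusted p = 0.0839) and −0.24 for Pecam1 (adjusted p = 0.0845).

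In the cerebellum, 0 of the 10 genes were DEGs between SCA1 KI and WT mice, beside 5.36% of all tested genes, and the median LFC was −0.047, beside −0.0049 for all genes. At an unadjusted p under 0.05, 1 of the 10 (Vegfc) and 2664 of all genes differed, with 0 of the 10 called by edgeR or by DESeq2. All 3 SCA1 KI libraries lay above all 3 WT libraries for 2 of the 10 genes, Vegfa and Vegfc, and 31.8% of all tested genes had groups that did not overlap. Vegfa had 2997, 3136 and 3205 normalized counts in WT libraries 2, 4 and 6 and 3542, 3708 and 3382 in SCA1 KI libraries 1, 3 and 5. Its LFC was 0.19 (95% interval −0.069 to 0.44, adjusted p = 0.475), which is 0.954 to 1.36 times the WT mean by this interval. Here too the interval uses the spread shared with the cortex, where Vegfa varied more. The adjusted p of Vegfa ran from 0.0627, with each region fitted on its own, to 0.485 over the other settings that kept all libraries. Without cortex libraries A and D it was 0.101, at the same LFC.

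Vegfc had 194, 238 and 196 normalized counts in WT and 286, 239 and 262 in SCA1 KI cerebellum. The highest WT library and the lowest SCA1 KI library differed by less than 1 normalized count. The LFC of Vegfc was 0.33 (95% interval 0.049 to 0.61, unadjusted p = 0.0248, adjusted p = 0.194), and the adjusted p ran from 0.105 to 0.530 with single libraries left out. Vegfb had 2048 to 2238 normalized counts in WT and 2109 to 2206 in SCA1 KI cerebellum, with an LFC of −0.0044 (95% interval −0.19 to 0.18, adjusted p = 0.990).

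Of the receptors, Flt1 had 2879, 2546 and 2535 normalized counts in WT and 2553, 2562 and 2142 in SCA1 KI cerebellum (LFC −0.14, 95% interval −0.37 to 0.097, adjusted p = 0.598). Kdr had an LFC of 0.081 (95% interval −0.30 to 0.47, adjusted p = 0.883). Nrp1 had 1173, 826 and 794 normalized counts in WT and 783, 812 and 764 in SCA1 KI cerebellum, where WT library 2 stood above the other 5 libraries, and its LFC of −0.22 (adjusted p = 0.612) was −0.043 without that library (adjusted p = 0.975). Cldn5, Pecam1, Cdh5 and Tek had LFCs from −0.13 (Tek, adjusted p = 0.571) to 0.046 (Pecam1, adjusted p = 0.883), and the groups overlapped for all 4.

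**Figure D2:**
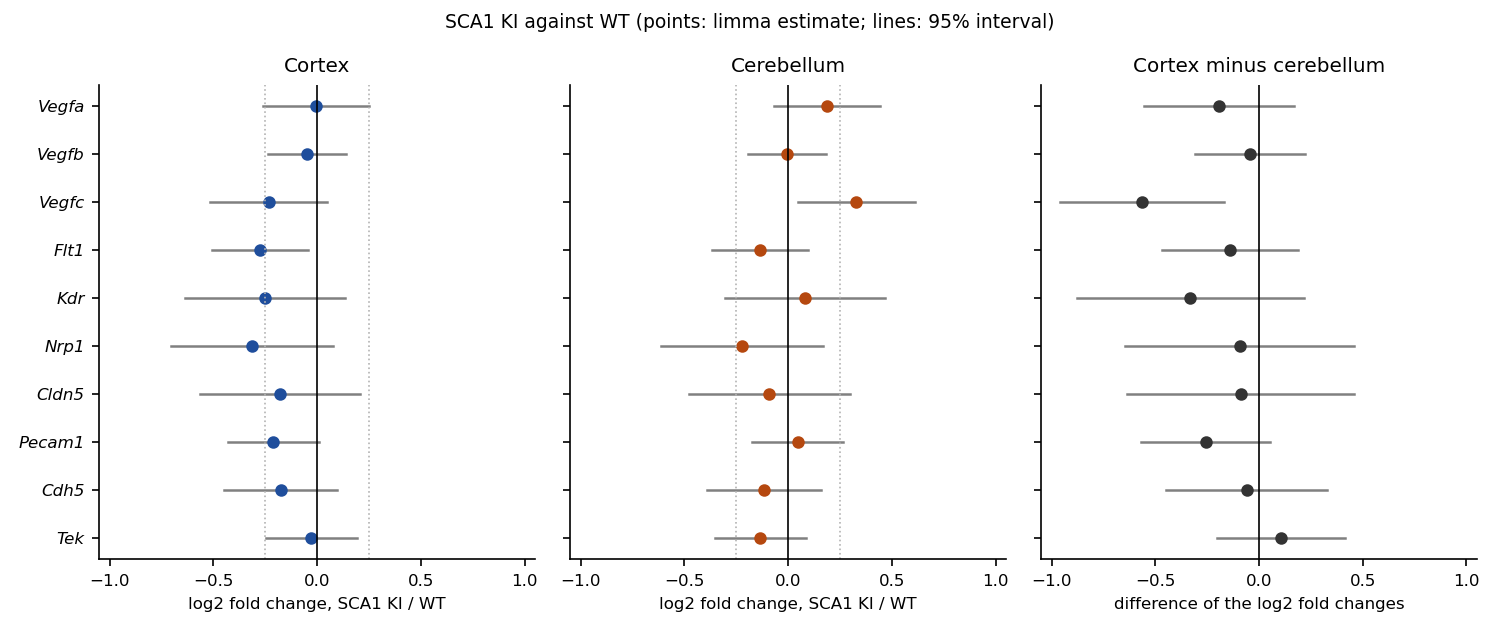
LFC of SCA1 KI against WT (horizontal axes, log2 scale) for the 10 genes in cortex (left) and cerebellum (centre), and the difference of these LFCs, cortex minus cerebellum (right); points are limma estimates, lines are 95% intervals and dotted lines mark an absolute LFC of 0.25. The intervals that leave out 0 were those of Flt1 in the cortex, of Vegfc in the cerebellum and of Vegfc in the difference, and none of these passed after adjustment.

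Whether the genotype acted differently in the 2 regions was tested as the difference of the LFCs. None of the 10 genes passed at an adjusted p under 0.05, against 8.15% of all tested genes. At an unadjusted p under 0.05, 1 of the 10 and 3285 of all genes differed, and edgeR and DESeq2 called 0 of the 10. Vegfc had the largest difference of the 10, −0.56 (95% interval −0.96 to −0.17, unadjusted p = 0.00907, adjusted p = 0.0830), with values lower in the SCA1 KI cortex and higher in the SCA1 KI cerebellum. It passed without WT cerebellum library 4 (−0.66, adjusted p = 0.0488) or without SCA1 KI cortex library F (−0.67, adjusted p = 0.0453), and the adjusted p reached 0.210 with other single libraries left out. The difference was −0.26 for Pecam1 (adjusted p = 0.338) and −0.19 for Vegfa (95% interval −0.56 to 0.17, adjusted p = 0.562).

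Between the regions, Nrp1 was higher in cortex than in cerebellum in both genotypes, and Vegfc and Vegfa were lower in the cortex of SCA1 KI mice. In WT mice 1 of the 10 genes passed, beside 61.7% of all tested genes, and in SCA1 KI mice 3 of the 10 passed, beside 62.4%. The cerebellar libraries come from an earlier data set of the laboratory, so region and data set cannot be told apart. Nrp1 was 1.76-fold higher in the WT cortex (LFC 0.82, 95% interval 0.43 to 1.21, adjusted p = 0.00136) and 1.65-fold higher in the SCA1 KI cortex (LFC 0.72, adjusted p = 0.00308), and in each genotype its 3 cortex libraries lay above its 3 cerebellum libraries. The LFC of Vegfc was −0.84 in SCA1 KI mice (95% interval −1.12 to −0.56, adjusted p = 7.47e-05) and −0.28 in WT mice (adjusted p = 0.0755). That of Vegfa was −0.39 in SCA1 KI mice (95% interval −0.64 to −0.13, adjusted p = 0.0107) and −0.19 in WT mice (adjusted p = 0.166). The difference between the genotypes in these LFCs is the same quantity as the difference between the regions above, and did not pass for either gene. Vegfb had an LFC of 0.24 in WT mice (adjusted p = 0.0283), below the limit of 0.25, and −0.052 after correction for transcript length and GC content. Kdr, Cldn5, Pecam1, Cdh5, Tek and Flt1 had LFCs between the regions from −0.31 to 0.17 over both genotypes, none of which passed with all libraries. Without library D, Pecam1 was higher in the WT cortex (LFC 0.27, adjusted p = 0.0247), and without library F, Kdr was lower in the SCA1 KI cortex (LFC −0.46, adjusted p = 0.0412).

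Within the groups, the 7 receptors and endothelial genes rose and fell together from library to library. Over the 12 libraries, with each group's mean removed, the 21 pairs among them had a Pearson r of 0.71 to 0.95 (median 0.85). Libraries D and A deviated most, with medians over the 7 of −0.21 and −0.27 on the log2 scale, while the median of the 24 further endothelial markers was 0.055 in D and 0.11 in A. In the cerebellum, SCA1 KI library 5 was lowest in 7 of 7 and in 20 of the 24 further markers, and WT library 6 was lowest in 6 of 7 and 13 of 24. Vegfa followed the 7 genes with r of 0.47 to 0.81 and Vegfb ran against them with r of −0.80 to −0.48. Vegfc had a median r of 0.050 with them. These correlations share the libraries, their normalization and their trends on length, and libraries D and A weigh most in them.

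**Figure D3:**
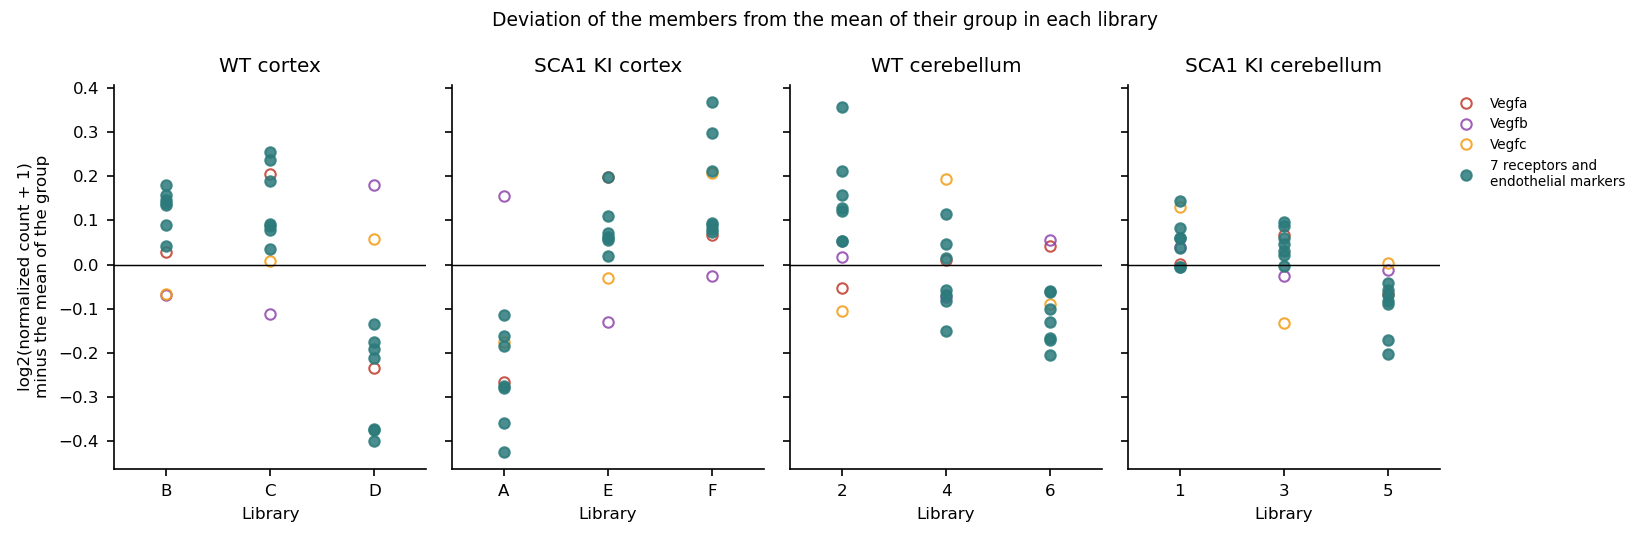
Deviation of each gene from the mean of its group (vertical axis, log2 of normalized count + 1) in each library (horizontal axes) for the 4 groups; filled points are the 7 receptors and endothelial genes and open points the 3 ligands. All 7 filled points lay below 0 in cortex libraries D and A and in cerebellum libraries 6 and 5, and Vegfb lay above 0 in D and A.

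The genes whose levels were most like those of Vegfa, with the mean of each region removed, were Fem1b (r = 0.967 over 12 libraries), Heatr1 (0.952), Snx30 (0.944), Clock (0.937) and Abl2 (0.926), among the 12662 genes whose mean reached 100 normalized counts. Most like Cldn5 were 1700094D03Rik (0.981), Lsr (0.977), Zfp664 (0.947), Kif26a (0.938) and Kank1 (0.927). Kdr came at rank 9 (0.917) and Cdh5 at rank 21 (0.894) for Cldn5, whereas the member most like Vegfa was Kdr at rank 746 (0.694). The genes were picked for the largest r, which keep the differences between genotypes and were not tested.

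Among the partners of TIE2, Angpt1, the ligand that activates it and keeps vessels stable, rose in the SCA1 KI mice of both regions. It had 282, 310 and 290 normalized counts in WT and 449, 570 and 613 in SCA1 KI cortex, and 788, 784 and 702 in WT and 1057, 1065 and 1108 in SCA1 KI cerebellum. All 3 SCA1 KI libraries lay above all WT libraries in each region. The LFC of Angpt1 was 0.87 in the cortex (95% interval 0.65 to 1.10, adjusted p = 1.48e-04) and 0.51 in the cerebellum (95% interval 0.28 to 0.73, adjusted p = 0.0136). The difference between the regions did not pass (0.37, adjusted p = 0.170), although it did without library A (0.50, adjusted p = 0.0179). The cerebellar call was lost without library 1, 3, 5 or 6, with LFCs of 0.45 to 0.52 and adjusted p of 0.0514 to 0.0621. Ptprb, the phosphatase that dampens TIE2, fell in the cortex, from 2942, 2717 and 3038 normalized counts in WT to 2028, 2209 and 2281 in SCA1 KI (LFC −0.42, adjusted p = 0.00284). It had an LFC of −0.11 in the cerebellum (adjusted p = 0.553). Of the 5 measured genes of the angiopoietin and TIE list, Tek included, 1 rose and 1 fell in the cortex (40.0%, beside 15.6% of all tested genes) and 1 rose in the cerebellum (1 of 5, beside 5.36%).

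**Figure D4:**
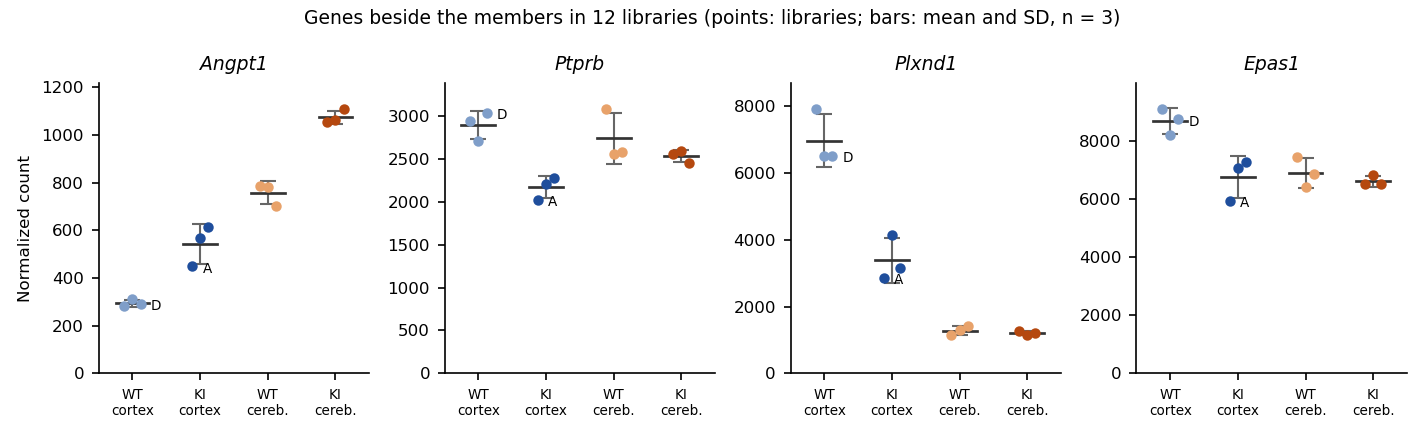
Normalized counts (vertical axes, starting at 0) of Angpt1, Ptprb, Plxnd1 and Epas1 in the 12 libraries; points are libraries and bars the mean and SD of 3 libraries. Angpt1 lay at 449 to 613 in the SCA1 KI cortex against 282 to 310 in WT, and the other 3 genes lay lower in SCA1 KI than in WT cortex with no overlap.

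The list of 39 genes of the cascade inside the cell is not one of endothelium alone, and other cell types use many of them. Of the 39 genes, 10 fell and 1 rose in the SCA1 KI cortex (28.2%, beside 15.6% of all tested genes), and 1 fell in the cerebellum (2.56%, beside 5.36%). The median LFC was −0.11 in the cortex and −0.0087 in the cerebellum. Prkcb, protein kinase C beta, fell from 69985, 70253 and 63037 normalized counts in WT to 31082, 41326 and 34295 in SCA1 KI cortex (LFC −0.94, adjusted p = 5.64e-05). Ppp3ca (LFC −0.70, adjusted p = 1.58e-04) and Ppp3r1 (LFC −0.39, adjusted p = 0.00136), the catalytic and regulatory subunits of calcineurin, and Akt2, a survival kinase (LFC −0.68, adjusted p = 4.69e-04), also fell, without overlap of the groups. Mapk3, encoding ERK1, rose (LFC 0.45, adjusted p = 0.00662), with 5730, 4681 and 6174 normalized counts in WT and 8319, 7347 and 6930 in SCA1 KI cortex. The other 6 cascade genes that fell had LFCs from −0.83 to −0.25. In the cerebellum Shb, an adaptor bound to KDR, fell (LFC −0.63, adjusted p = 0.0440). The call of Shb was lost without any of libraries 1, 2, 3, 5, 6, C, D and E (LFC −0.71 to −0.55, adjusted p 0.0521 to 0.171).

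Of the 9 genes of the endothelial Notch list, which covers a pathway that restrains sprouting downstream of VEGF, 2 fell in the cortex (22.2%, beside 15.6% of all tested genes) and none was called in the cerebellum (beside 5.36%). Hey1, a Notch target, fell from 2289, 2405 and 2689 to 1746, 1778 and 1763 normalized counts (LFC −0.48, adjusted p = 8.37e-04). Notch4, a Notch receptor of endothelial cells, had an LFC of −0.54 (adjusted p = 0.0125) and lost its call without library C (−0.49, adjusted p = 0.0530) or without A and D (−0.53, adjusted p = 0.0585). In the hypoxia list of 19 genes, 4 fell in the cortex (21.1%, beside 15.6% of all tested genes) and 0 were called in the cerebellum (beside 5.36%), and the medians of their LFCs were −0.17 and −0.037. Epas1, which encodes HIF-2 alpha and is abundant in endothelium, fell from 9087, 8213 and 8742 to 5944, 7063 and 7289 normalized counts (LFC −0.36, adjusted p = 0.00722). Arnt2, a partner of the hypoxia factors found in neurons, had an LFC of −0.37 (adjusted p = 0.0135), and it was −0.38 without A and D (adjusted p = 0.0572). Vhl, which directs hypoxia factors to degradation, had an LFC of −0.26 (adjusted p = 0.0173) that was lost without A or D (−0.21 for each, adjusted p 0.0538 and 0.0605) and without both (−0.16, adjusted p = 0.110). Adm, the vasoactive peptide adrenomedullin, had an LFC of −0.77 (adjusted p = 0.0285) at 67.2 to 86.4 normalized counts in WT and 40.5 to 48.3 in SCA1 KI cortex, and lost its call without B, C, E or F (−0.79 to −0.66, adjusted p 0.0582 to 0.107) and without A and D (−0.91, adjusted p = 0.0505). Vegfa itself, a target of these factors, is described above.

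Of 10 semaphorins and plexins listed as partners of neuropilin 1, not all of them partners of it alone, 4 fell and 1 rose in the cortex (50.0%, beside 15.6% of all tested genes). In the cerebellum 1 fell and 1 rose (2 of 10, beside 5.36%). Plxnd1, the receptor of SEMA3E in vessels and in neurons, fell from 7912, 6500 and 6525 to 2855, 4157 and 3151 normalized counts in the cortex (LFC −1.06, adjusted p = 1.44e-04). Its level in the cerebellum was 1138 to 1405 in WT and 1154 to 1256 in SCA1 KI (LFC −0.071, adjusted p = 0.850). Plxna2 (LFC −0.57, adjusted p = 0.00186) and Plxna4 (LFC −0.43, adjusted p = 0.00528), co-receptors in semaphorin guidance of axons, fell in the cortex as well. Sema3f, a ligand of neuropilins, fell in both regions (LFC −0.76, adjusted p = 0.0248, and LFC −1.13, adjusted p = 0.00678), and its cortical call was lost without A, B, C or E (−0.79 to −0.62, adjusted p 0.0574 to 0.0940) and without A and D (−0.72, adjusted p = 0.0769). Sema3a, the main semaphorin ligand of neuropilin 1, rose in the cerebellum from 1058 to 1297 normalized counts in WT to 1615 to 1927 in SCA1 KI (LFC 0.54, adjusted p = 0.0293). That call was lost without library 1, 2, 3, 5 or 6 (0.45 to 0.58, adjusted p 0.0655 to 0.134). Plxna3 rose in the cortex (LFC 0.37, adjusted p = 0.0446) and lost its call without any of 7 libraries, namely 1, 3, 5, C, D, E and F (0.29 to 0.37, adjusted p 0.0607 to 0.137), or without A and D (0.38, adjusted p = 0.0632).

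Of the 12 genes of the Wnt pathway that maintains the barrier, 1 fell in each region (8.33%, beside 15.6% of all tested genes in the cortex and 5.36% in the cerebellum). The ligand Wnt7b fell in the cortex (LFC −0.53, adjusted p = 0.0441), which was lost without library 1, 3, 5, 6, A, B, C or D (−0.60 to −0.31, adjusted p 0.0528 to 0.131) and was −0.27 without A and D (adjusted p = 0.247). Lef1, the transcription factor at the end of that pathway, had an LFC of −0.43 in the cerebellum (adjusted p = 0.0480), which was lost without library 1, 2, 3, 4, 5, C, E or F (−0.46 to −0.33, adjusted p 0.0515 to 0.187). Over the 97 genes of the pathway lists outside the 10, 25.8% were DEGs in the cortex, beside 15.6% of all tested genes, and 5.16% in the cerebellum, beside 5.36%. The lists were chosen with earlier results of these data known, so these shares are a description and not a test.

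**Figure D5:**
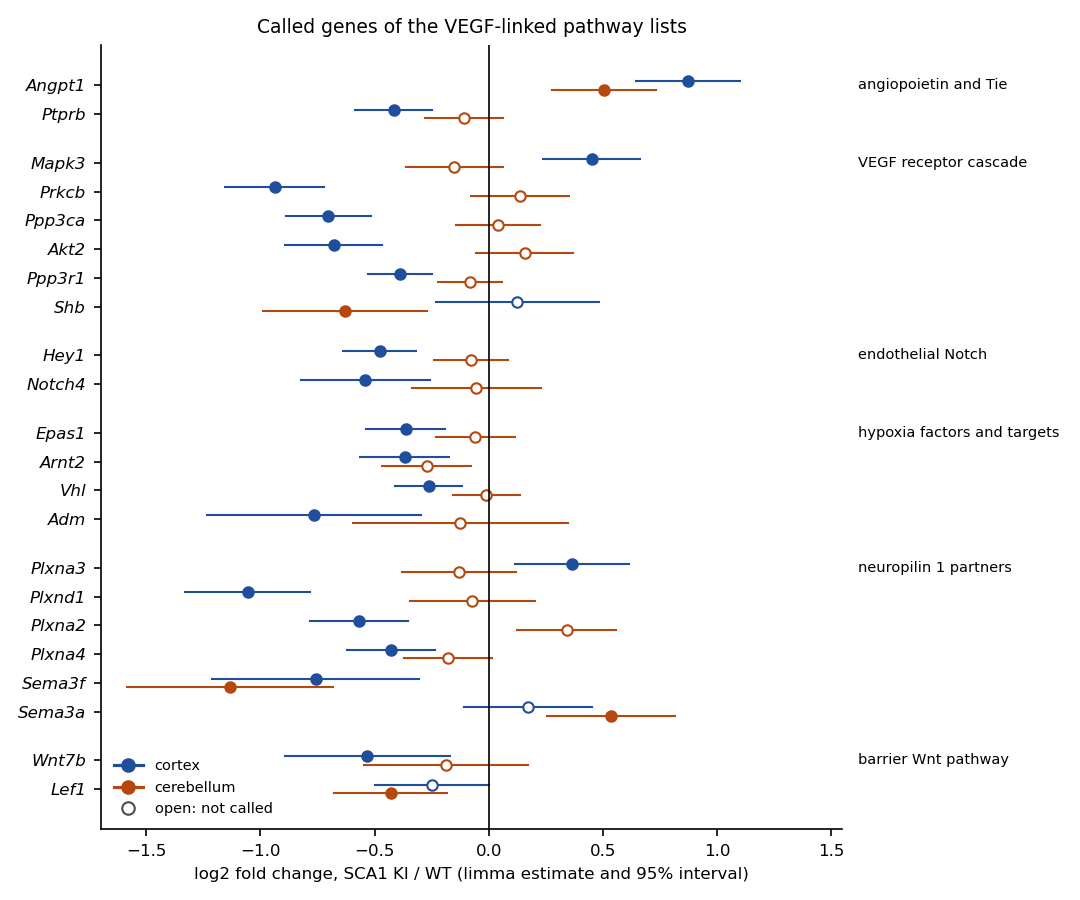
LFC of SCA1 KI against WT (horizontal axis, log2 scale) of the DEGs named from the pathway lists, in cortex (blue) and cerebellum (orange); points are limma estimates, lines are 95% intervals and open points were not DEGs. Angpt1 lay above 0 and Sema3f below 0 in both regions, and most of the others were called in the cortex.

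Beyond the 10 genes, lists of vessel cell types were counted in the same way. In the list of 30 endothelial genes, members included, 2 fell in the cortex, 6.67% beside 15.6% of all tested genes (Eng and Robo4, with LFCs of −0.39 and −0.35, named after their values were seen) and 0 were called in the cerebellum, beside 5.36%. Their LFCs were below 0 for 26 of 30 genes in the cortex, with a median of −0.18, and for 15 of 30 in the cerebellum, with a median of 0.0036. Of all 15369 tested genes, 7755 were below 0 in the cortex (median −0.0028) and 7881 in the cerebellum (median −0.0049). The members in this list varied together from library to library, so the signs are not separate observations. The summed counts of the 24 endothelial genes outside the 10 were 26028 to 28317 in WT and 23339 to 26629 in SCA1 KI cortex, and 19645 to 22114 and 19391 to 21597 in the cerebellum. Of 14 genes of pericytes and smooth muscle and 9 of fibroblasts, 0 were called in either region, beside 15.6% of all tested genes in the cortex and 5.36% in the cerebellum. Choroid plexus genes, 0 of 9 called, summed to 20277 to 75372 in WT and 921 (library 1) to 78635 in SCA1 KI cerebellum, so that the cerebellar libraries held very unequal amounts of that tissue, which has vessels of its own, and its part in the cerebellar values was not tested.

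Among marker genes of other cell types, most of those of astrocytes and neurons differed between the genotypes in the cortex. Of 10 astrocyte genes 7 fell, beside 15.6% of all tested genes. The summed counts of the 10 were 305260 to 307205 in WT and 157462 (library A), 221055 (E) and 207510 (F) in SCA1 KI cortex. Of 8 neuronal genes 4 fell and 1 rose (62.5%), with sums of 364466 to 387266 and 278384 to 297428. In the cerebellum 2 of 10 astrocyte genes fell and 0 of 8 neuronal genes were called, beside 5.36% of all tested genes. The astrocyte sums there were 234256 to 251280 in WT and 196212 to 199887 in SCA1 KI. Of 10 microglial genes, 0 were called in the cortex (beside 15.6%) and 1 fell in the cerebellum (beside 5.36%). Of the blood list only Alas2 was measured. It was a DEG in the cortex (LFC −0.76, lower in SCA1 KI) and was not called in the cerebellum (LFC −0.54). The part of these cell types in the values of the pathway genes, many of which neurons and glia also express, was not tested.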

How the data were processed

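Messenger RNA from cortex or cerebellum was sequenced in 12 libraries, 3 for each genotype and region. The authors used STAR with mm10 for alignment and featureCounts for counting per gene, and divided the counts of each library by a DESeq2 size factor. The deposited signal is this normalized count. In every library 100% of values were whole reads (tolerance 0.02 reads), which were recovered for edgeR and DESeq2. The columns name region, genotype and a letter or number of their own, not the replicate of the labels. Whether libraries came from separate animals is stated only as biological replicates, and p-values measure the spread between them.

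limma 3.58.1 (R 4.3.3, eBayes with trend) was run on log2(normalized count + 1) for the 15369 of 15759 entries whose mean reached 10 normalized counts, with a mean per group (4 groups, 12 libraries). Adjusted p are Benjamini-Hochberg values over all tested genes. DEGs passed 0.05 in adjusted p and 0.25 in absolute LFC, and the difference of the genotype effect between regions had no limit on size. The pseudocount understates the LFC of low genes. Levels per kb used the joined length of all exons of a gene in GENCODE vM21, which matched 95.1% of symbols. An exon of Nrp1 holds Mir1903, and no other member shares exon bases with another gene. Counts cannot tell apart the isoforms of a gene, such as soluble and membrane-bound FLT1.

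Alternatives were no filter on low values or a minimum mean of 100, pseudocounts of 0.5 and 5, centring on the median of each region, correction of each library for length and GC content, edgeR 4.0.16 (quasi-likelihood), DESeq2 1.42.0, no limit on the LFC, each region on its own and 12 fits without 1 library each. The length and GC correction took out the trend of each library against the mean of all 12 libraries. It therefore also takes out trends that go with genotype or region. The fits were tested on simulated data.

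The 10 genes and the lists were chosen with earlier results of these data known. From the pathway lists, DEGs were named, at most the 4 with the smallest p per region and direction. The 5 genes most like Vegfa and Cldn5 were taken by Pearson r. Promoter sequences are from RefSeq, and those of Pecam1 and Cdh5 were not used here.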

Additional observations from a re-analysis of the deposited data

Results flagged for a closer look

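In 13 of the 97 pathway genes outside the 10 (13.4%; 11 lower and 2 higher) the effect of the genotype differed between cortex and cerebellum by the test of that difference (cortex LFC minus cerebellum LFC, limma, adjusted p under 0.05), beside 8.15% of all tested genes. Of these, 7 are among the DEGs named in the report, from lists chosen with earlier results of these data known. The difference was −1.08 for Prkcb (adjusted p = 8.84e-04), −0.91 for Plxna2 (adjusted p = 0.00203), −0.74 for Ppp3ca (adjusted p = 0.00279), −0.84 for Akt2 (adjusted p = 0.00298) and −0.98 for Plxnd1 (adjusted p = 0.00513). Plxna2 had opposite signs in the regions, with an LFC of −0.57 in the cortex and of 0.34 in the cerebellum (adjusted p = 0.0709). For Mapk3 the difference was 0.60 (adjusted p = 0.0178), which missed the threshold without library 3 (0.57, adjusted p = 0.0512). For Hey1 it was −0.40 (adjusted p = 0.0340), and it missed the threshold in 10 of the 12 fits that left out 1 library (without 1, 2, 3, 4, 5, A, C, D, E or F), with values of −0.43 to −0.34 and adjusted p of 0.0511 to 0.102.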

How the results depend on the processing

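No paired analysis was possible because the columns carry letters and numbers of their own and not the replicate numbers of the labels. Of 1110 LFCs of the 10 genes under the alternatives, over all 5 comparisons, 1047 kept their direction and side of the threshold, 13 passed newly and 50 changed sign, and none of those 50 had been called. Of 1012 LFCs of the named pathway genes, 917 kept both, 79 lost the call, 16 passed newly and 0 changed sign. With each region fitted on its own, Lef1 (adjusted p = 0.0665), Plxna3 (0.0814), Vhl (0.0893) and Wnt7b (0.0842) missed the threshold, as did Lef1 with no filter (0.0505) or centring (0.0622), Shb with centring (0.0518) and Wnt7b with the length and GC correction (0.0537), and with edgeR Vhl had an LFC of −0.25, just short of the limit. The cause of these shifts was not tested.

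In the cortex, the LFC of Vegfa was 0.0097 with edgeR and 0.0081 without A and D. With single libraries left out it ran from −0.12 to 0.13, that of Vegfb from −0.13 to 0.042, that of Tek from −0.095 to 0.030 and that of Cldn5 from −0.37 to 0.033. In the cerebellum, Vegfb was at 0.020 with centring on the median and at 0.039 with the length and GC correction, and single leave-outs took it from −0.041 to 0.023 and Kdr from −0.0019 to 0.18. The difference of the genotype effect between regions ran over the leave-outs from −0.12 to 0.047 for Vegfb, from −0.29 to 0.046 for Nrp1, from −0.28 to 0.12 for Cldn5 and from −0.16 to 0.078 for Cdh5. Between cortex and cerebellum, the length and GC correction took Vegfb to −0.052 in WT and −0.12 in SCA1 KI mice, and Flt1 to 0.15 and Cdh5 to −0.040 in SCA1 KI mice. Tek was at −0.016 in WT mice with edgeR, and Cdh5 at −0.0053 in SCA1 KI mice with centring. Without A and D, Cldn5 was at 0.16 in WT and 0.099 in SCA1 KI mice and Flt1 at 0.040 in SCA1 KI mice. Over the leave-outs the LFC in WT mice ran from −0.077 to 0.20 for Kdr, from −0.047 to 0.12 for Tek, from −0.14 to 0.16 for Cldn5 and from −0.021 to 0.15 for Cdh5, and that in SCA1 KI mice from −0.14 to 0.040 for Flt1, from −0.30 to 0.099 for Cldn5 and from −0.10 to 0.14 for Cdh5.

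Over the 12 leave-outs, 0 to 2 of the 10 genes were DEGs between genotypes in the cortex. The effect of the genotype differed between the regions for 0 to 1 of them. In WT mice 1 to 3 of the 10 differed between cortex and cerebellum, and 2 did so with no limit on the LFC or without A and D. In SCA1 KI mice 3 to 4 did so, 4 without library E or F. All DEGs between genotypes in the cerebellum numbered 399 to 977 (824 with all libraries, and 399, 454 and 512 without SCA1 KI library 1, 3 or 5). Genes whose genotype effect differed between the regions numbered 783 to 1267 (783 and 833 without library 1 or 3). With 3 libraries a group, the 95% intervals of the 10 genes reached 0.19 to 0.39 to either side of the LFC within a region, which limits what could be detected.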

Other observations

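The ligand and receptor families hold a few genes outside the 10, named here after their values were seen. Placental growth factor (Pgf), a ligand of FLT1, had 49.9, 50.9 and 87.7 normalized counts in WT and 108, 92.1 and 78.4 in SCA1 KI cortex (LFC 0.60, adjusted p = 0.127), and 118, 72.1 and 74.6 in WT and 57.3, 46.0 and 58.1 in SCA1 KI cerebellum (LFC −0.67, adjusted p = 0.166). Neither region passed, but the difference between them did (1.27, 95% interval 0.50 to 2.03, adjusted p = 0.0448), at counts below those of any of the 10 genes. WT libraries D and 2 stood above the other WT libraries of their regions, and whether this call of Pgf rests on single libraries was not examined. Flt4, the receptor of VEGF-C, had 201, 152 and 200 normalized counts in WT and 130, 154 and 129 in SCA1 KI cortex (LFC −0.41, 95% interval −0.74 to −0.080, adjusted p = 0.0846). WT library C lay below SCA1 KI library E, so the groups overlapped. Nrp2, the second neuropilin, had 639 normalized counts in library A beside 1583 and 1884 in the other SCA1 KI cortex libraries, and 1122 to 1437 in WT (LFC −0.068, adjusted p = 0.903). Figf, the older symbol of Vegfd, had 49.6 to 75.3 normalized counts in the cortex of both genotypes and 6.78 to 12.8 in the cerebellum.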
